A study of Mus musculus with 2 samples.

Results

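The genes described here encode the neurofilament subunits Nefl, Nefm and Nefh, the other neuronal intermediate filament proteins Ina and Prph, and the microtubule proteins Mapt, Map2, Map1b and Tubb3. They were taken by name from the arrays' gene annotation. All 9 were on the array, with 26 probes, among 37295 gene names on 56603 probes. They were chosen by their own differences in log2 processed signal between the 2 animals, so those differences are given as a description and carry no test.

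Brain RNA of C57BL/6J mice at postnatal day 10 was hybridised to Agilent 1-colour arrays, with 1 array for each of 2 genotypes. The control was a GPHR F/F mouse and the other was a GPHR F/F;Nes littermate, so both carried the F/F alleles. GPHR is the Golgi pH regulator, a membrane protein of the Golgi, and its mouse gene is Gpr89. The labels do not say what the suffix Nes denotes, and the series title speaks of a loss of GPHR in the brain. With 1 animal a genotype there is no measure of the spread between animals, and nothing below can be separated from a difference between 2 individuals.

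Neurofilaments are the intermediate filaments of neurons. The light subunit Nefl forms the core of the filament, the medium and heavy subunits Nefm and Nefh add long phosphorylated tails that reach out into the axon, and together they set the calibre of large axons. Ina, alpha-internexin, co-assembles with them in the central nervous system and is made early in neuronal development, and Prph, peripherin, is best known from peripheral neurons and from central neurons whose axons leave the brain. Microtubules run beside the filaments: Tubb3 is the neuronal beta-tubulin, Mapt (tau) binds microtubules mostly in axons, Map2 in dendrites, and Map1b in growing axons.

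Each probe is a DNA strand of about 60 bases, and the place it reads decides which transcripts of a gene it can see. The probes on which the within-gene comparisons turn are printed 5′ to 3′ in the sense of the transcript, as the scanner files give them, with coordinates on the build mm9 of the array's annotation. Of 3 probes near the 3′ ends of Nefm and Nefh only the last 30 bases are shown. Each of the others is shown whole and has at least 1 forward reading frame with no stop codon before its last codon. Capitals mark AATAAA, the usual polyadenylation hexamer, or, in Prph, a stop codon that ends an open frame.
Nefm A_51_P145220, chr14:68738193-68738252, minus strand: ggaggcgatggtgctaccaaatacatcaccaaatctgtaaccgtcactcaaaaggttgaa
Nefm A_55_P2723589, chr14:68737598-68737657, minus strand, last 30 bases: cAATAAAggtcatactggaaacataaaaaa
Nefm A_55_P2720341, chr14:68737367-68737426, minus strand, last 30 bases: aactttaaaactatagttctgaAATAAAaa
Nefh A_55_P2053181, chr11:4838758-4838817, minus strand, last 30 bases: tgcAATAAAaccaagtgcttctgaAATAAA
Prph A_51_P344606, chr15:98887297-98887356, plus strand: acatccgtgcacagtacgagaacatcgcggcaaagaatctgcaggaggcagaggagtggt
Prph A_55_P1968895, chr15:98889042-98889101, plus strand: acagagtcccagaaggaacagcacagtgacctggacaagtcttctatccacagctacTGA
Mapt A_66_P115262, chr11:104143710-104143768, plus strand: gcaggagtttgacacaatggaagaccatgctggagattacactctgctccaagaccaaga
Mapt A_55_P1954486, chr11:104189430-104189489, plus strand: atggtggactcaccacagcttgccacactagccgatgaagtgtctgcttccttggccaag
Map1b A_55_P2736919, chr13:100204235-100204294, minus strand: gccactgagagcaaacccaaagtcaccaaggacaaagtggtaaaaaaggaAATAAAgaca
Over the whole array 5528 of 56603 probes (9.77%) held AATAAA on the strand printed. A match describes the letters of a probe and is not by itself a site of cleavage. Exon, intron and UTR boundaries at these positions were not analysed here.

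A spot's value is the scanner's processed signal, a brightness on a linear scale. The GPHR F/F;Nes array was dimmer as a whole, with a 75th percentile of 173.4 against 259.5 in the control. Each log2 signal was therefore taken relative to its own array's 75th percentile, and a difference is GPHR F/F;Nes minus control on that scale. The choice of scale sets where 0 lies. Scaling to the 8 spike-in RNAs read on both arrays, whose own differences had an SD of 0.35, would shift every difference by −1.03, so any value given here as above 0 by less than that would lie below 0 on that scale, cell type markers included, and centring each array on its median would shift it by −0.28. A gene's difference is the mean over its probes well above background on both arrays. The error after each ± is the one the scanner software gives for the spots, carried to the log2 scale: it is technical and says nothing of the spread between animals. For the measured probes of the 9 genes it lay between 0.204 and 0.215, for bright and dim probes alike. Replicate spots of 298 other probes scattered less, with an SD of 0.051 and 0.053 on the 2 arrays. A gap smaller than the scanner error therefore does not show that 2 probes or genes agree.

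All 3 neurofilament subunits were at least 2-fold lower in the GPHR F/F;Nes brain, Prph stood between them and the rest, and Ina and the 4 microtubule proteins were lower by 1.30-fold or less. That makes 3 of 9 genes at least 2-fold lower, where 1.37% of the 24093 measured genes were. At 1.5-fold the count was 4, where 5.73% of genes were as low, and at 3-fold it was 1, where 0.249% were. None of the 9 was at least 2-fold higher, against 7.94% of measured genes. All 9 lay below 0, against 43.0% of measured genes, and their median difference was −0.38 against a median of 0.07 over all genes. Because the 9 were chosen with this contrast in view, nothing is read from those shares. In bulk RNA, fewer cells of a type and less RNA per cell cannot be told apart.

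**Figure D1:**
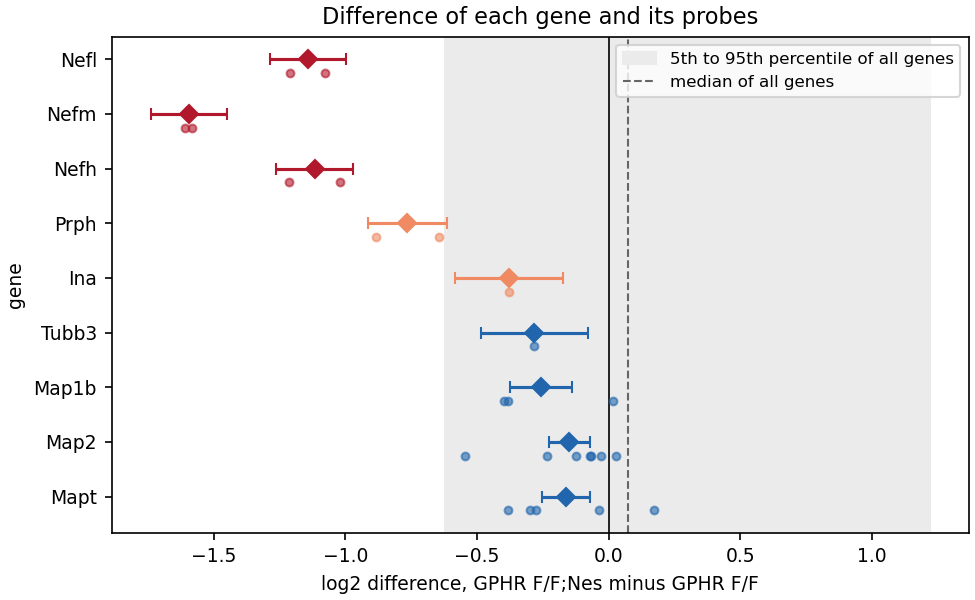
Difference in log2 level, GPHR F/F;Nes minus control, of each gene (diamond, with the scanner error as a bar) and of each of its measured probes (small points), over a band from the 5th to the 95th percentile of all measured genes and a dashed line at their median of 0.07. Red marks the neurofilament subunits, orange Prph and Ina, and blue the microtubule proteins. The 3 red genes lie between −1.60 and −1.12, to the left of the band, as does Prph at −0.76, and the other 5 lie inside it.

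Nefm, the medium subunit, had the lowest value of the 9, −1.60 ± 0.14, or 3.02-fold lower. Its upstream probe, the first printed, gave a signal of 366 in the control and 80.2 in GPHR F/F;Nes. The probe 595 bases further downstream gave 1634 and 365. These readings came from places with and without the hexamer, yet their differences were −1.61 and −1.58, an SD between probes of 0.020. Of all measured genes, 58 (0.241%) had a lower difference than Nefm.

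The remaining Nefm probe, a further 231 bases downstream, was not well above background on either array, with signals of 1.42 and 4.20. It is annotated to an Ensembl transcript rather than to the RefSeq mRNA that the other Nefm probes carry, and it lies beyond the hexamer of the middle probe. It gives no fold, and it was left out of the gene's value. With every probe kept whatever its signal, the mean for Nefm would be −0.35, so the dim probe alone decides that value.

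Nefl, the light subunit on which the others assemble, was lower at both of its probes. Its upstream probe (chr14:68705725-68705784, plus strand) gave 4325 in the control and 1249 in GPHR F/F;Nes. Its downstream probe (chr14:68706866-68706925), 1141 bases on and, like the dim Nefm probe, annotated to an Ensembl transcript, gave 1957 and 620.0. The probes' differences were −1.21 and −1.08, apart by less than the scanner error of 0.29 for such a comparison, and the gene's difference was −1.14 ± 0.14, or 2.21-fold lower.

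Nefh, the heavy subunit, which appears last of the triplet as axons mature, was also lower at both of its probes. The upstream probe (chr11:4838918-4838977, minus strand) read 182 in the control and 52.3 in GPHR F/F;Nes. The downstream probe, whose end is printed and holds the hexamer at 2 places, read 452 and 149. Their differences of −1.21 and −1.02 were closer than the scanner error of their comparison, and the gene stood at −1.12 ± 0.15, or 2.17-fold lower. With normexp and quantile normalization it stood at −0.81, short of 2-fold. Nefl and Nefh did not differ from each other beyond the scanner error (−0.03 ± 0.20), whereas Nefm was below both, by 0.45 ± 0.20 below Nefl and by 0.48 ± 0.21 below Nefh.

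**Figure D2:**
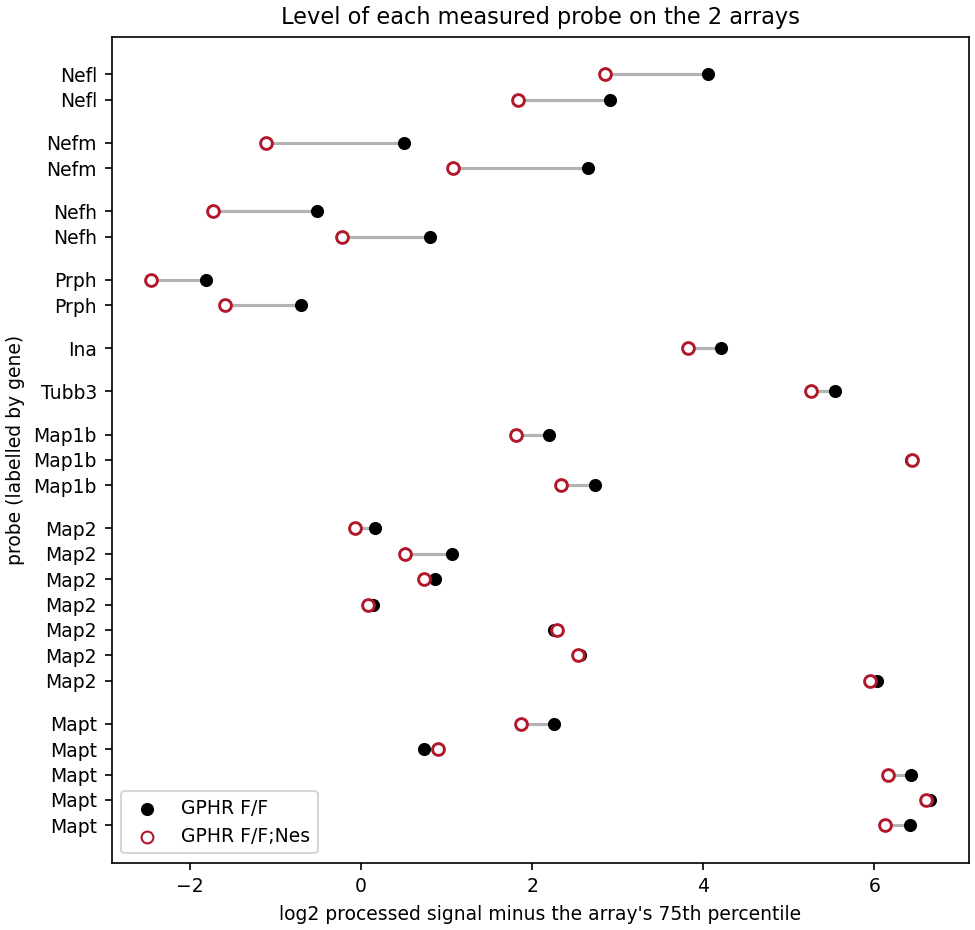
Log2 processed signal relative to the array's 75th percentile for each measured probe of the 9 genes, with the control and the GPHR F/F;Nes array side by side and a line joining the readings of a probe. All 6 neurofilament probes are lower in GPHR F/F;Nes by between 1.02 and 1.61. Levels of different probes depend on the probe and are not to be compared.

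Prph, which central neurons with long projections share with peripheral ones, was dim on both arrays. The upstream probe gave 73.7 in the control and 31.5 in GPHR F/F;Nes. The downstream probe lies 1745 bases further on in the genome and ends in the stop codon printed in capitals. It gave 159 and 57.7. On the array's target transcript the 2 probes start at bases 844 and 1497. The differences were −0.64 and −0.88, which is within the scanner error of 0.30 for their comparison, and the gene stood at −0.76 ± 0.15, or 1.70-fold lower. Its distance from the nearest neurofilament subunit, Nefh, was 0.35 ± 0.21, and it lay 0.39 ± 0.25 below Ina.

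Ina had a single probe (chr19:47098781-47098840, plus strand), with 4782 in the control and 2457 in GPHR F/F;Nes. The difference was −0.38 ± 0.20, or 1.30-fold lower. Ina stood 0.76 above Nefl, with which it co-assembles, and −0.10 ± 0.29 from Tubb3. Among the 5 intermediate filament genes of neurons described here, Ina alone lay inside the central range of all genes (5th percentile −0.62).

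Tubb3, read by 1 probe (chr8:125945701-125945760, plus strand), gave 12057 in the control and 6625 in GPHR F/F;Nes, a difference of −0.28 ± 0.20. Map1b, Mapt and Map2 were at −0.26 ± 0.12, −0.16 ± 0.09 and −0.15 ± 0.08. In the order of differences from Nefm up to Map2, the neighbours Nefl and Nefh, Ina and Tubb3, Tubb3 and Map1b, Map1b and Mapt, and Mapt and Map2 were apart by less than their scanner errors. Between 12.5% of measured genes (for Ina) and 28.7% (for Map2) had a lower difference than these 5 genes.

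The probes of the long microtubule genes spanned a wider range of differences than those of the neurofilament genes. The neurofilament genes had only 2 measured probes each, between 160 and 1141 bases apart. A range grows with the number of probes, so these spans are not like for like. Mapt had 5 probes over 49.7 kb of chromosome 11. Its most 5′ probe, printed above, gave 1237 in the control and 635 in GPHR F/F;Nes (−0.38), and the next, which is annotated only to an Ensembl transcript, gave 431 and 325 (0.17). Near the 3′ end lie a pair of probes 66 bases apart from start to start: the printed one gave 22366 and 12357 (−0.27), and its neighbour gave 26001 and 16916 (−0.04). The last probe gave 22194 and 12063 (−0.30). From lowest to highest the Mapt probes spanned 0.55, where the scanner error of such a comparison was 0.29.

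Map2 had 7 probes over 38.8 kb of chromosome 1, with differences from −0.55 to 0.03. The probe at −0.55, with 543 in the control and 248 in GPHR F/F;Nes, is annotated to an Ensembl transcript. So is the next probe downstream, which gave 473 and 290 (−0.12). The brightest, at the 3′ end, gave 16905 and 10746 (−0.07). The 3 most downstream probes lay between −0.07 and 0.03, so the lower mean of Map2 came mainly from its upstream probes.

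Map1b had 3 probes over 84.6 kb of chromosome 13. The printed probe, the brightest of them, gave 22286 in the control and 15047 in GPHR F/F;Nes, a difference of 0.02. The most 3′ probe gave 1728 and 875 (−0.40), and a probe annotated only to a cDNA clone gave 1190 and 610 (−0.38). Their span was 0.41 against a scanner error of 0.29. Taken by its brightest probe alone, Map1b would stand at 0.02 and not at −0.26.

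**Figure D3:**
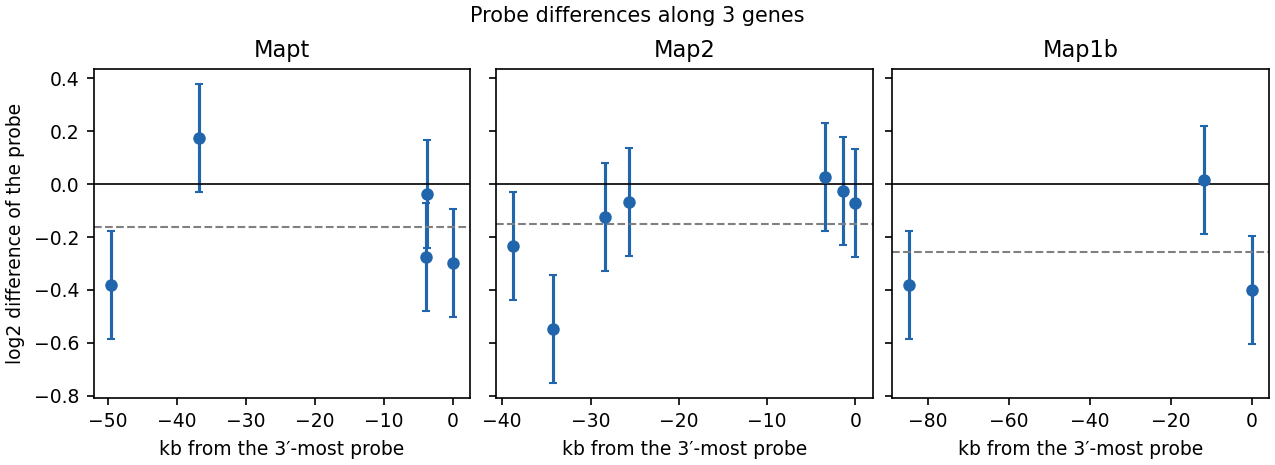
Difference in log2 level of each probe of Mapt, Map2 and Map1b, with its scanner error as a bar, against its distance in kb from the most 3′ probe of the gene, with a dashed line at the gene's mean. The 16 probes of the microtubule genes, of which these 3 genes hold 15, lie between −0.55 and 0.17, and in Map2 the 3 probes nearest the 3′ end lie between −0.07 and 0.03.

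Counted by probe, 22 of the 25 measured probes were below 0, where 46.1% of the 36717 measured probes of the array were. At least 2-fold lower were 6 probes, where 1.45% of the array's probes were, and all 6 belonged to the neurofilament triplet. The base composition of the groups overlapped, with 35% to 45% GC in the triplet and 35% to 55% in the microtubule genes. No spot of these probes was saturated or called an outlier, and each probe had a single spot. Among measured genes of like mean level the median difference lay between −0.12, in the bin that held Nefl, and 0.09, in the bin that held Prph.

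Nefl and Nefm share a locus on chromosome 14, with probes 30.4 kb apart on opposite strands. Of the other genes with probes within 500 kb of them, 6 were measured, with a median of 0.20, and none was at least 2-fold lower. Dock5, which encodes a Rac exchange factor, was higher by 1.05 at 272 kb from Nefl. Nearest to Nefm was the transcript A230070E04Rik, 11.1 kb away, with 219 in the control and 77.6 in GPHR F/F;Nes (−0.92 ± 0.21), and it was picked out after its value was seen. Around Nefh 20 genes had a median of −0.15, and Emid1 stood at −1.37. Around Prph 40 genes had a median of 0.02, with Ddn, which encodes the postsynaptic protein dendrin, at −1.05 and the potassium channel gene Kcnh3 at −1.04, and with Adcy6 at 1.59, Fam186b at 1.11 and BU502989 at 1.04. Past 2-fold near Map1b was Zfp366 (1.17), and near Tubb3 were 6030466F02Rik (1.76), Gm10071 (1.499) and Acta1 (1.09), all of them higher. Of these, 6030466F02Rik and Gm10071 were dim, at 13.6 and 8.69 in the control. No neighbour of Ina, Mapt or Map2 was past 2-fold in either direction. Over all measured genes 1.37% were at least 2-fold lower and 7.94% at least 2-fold higher, and nothing about a locus is read from the neighbours past 2-fold.

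Promoter sequence from RefSeq (GRCm38.p6) was matched for 5 of the 9 genes, Ina, Map1b, Map2, Prph and Tubb3. The one for Prph is shown for its TATA motif, since Prph is the only one of these 5 genes below the central range of all genes. The 60 bases before its start carry TATAAA, in capitals, with its first base 31 before the start.
Prph promoter, chr15:99055114-99055173, plus strand: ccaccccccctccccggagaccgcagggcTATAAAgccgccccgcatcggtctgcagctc
Searched on both strands in the 50 bases before the start, TATAAA was in 1151 of 32851 promoters (3.50%) and in none of the other 4. The motif GGGCGG, searched on both strands over the 250 bases before the start, was found in all 5 and in 32.7% of all promoters. These matches are descriptions of the letters in the window.

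Of 13 intermediate filament genes of other cells and of the nucleus 11 were measured, with a median of 0.43 against 0.07 for all genes, 9 above 0 and 2 below. Past 2-fold were 3 of them, all higher, where 7.94% of measured genes were at least 2-fold higher and 43.0% lay below 0. On the spike-in scale the list's median would be −0.60, against −0.96 for all genes. Vim, the vimentin of glia and vessels, gave 10085 in the control and 14879 in GPHR F/F;Nes, a difference of 1.14 ± 0.20. Nes, the nestin of neural progenitors, was at 0.91 ± 0.20 and Gfap, of astrocytes, at 0.82 ± 0.14. The epithelial keratins Krt8 (1.46 ± 0.34) and Krt18 (1.26 ± 0.26) were dim, at 7.97 and 13.4 in the control. Synm, synemin, was at −0.63 ± 0.16. On the spike-in scale Vim would stand at 0.11, Nes at −0.12 and Gfap at −0.21.

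The other parts of the axonal skeleton stood closer to the microtubule proteins than to the neurofilament triplet. All 46 tubulins and microtubule-binding proteins were measured, with a median of −0.22 and 36 below 0, where 43.0% of measured genes were. None was at least 2-fold lower (1.37% of measured genes), and 1 was at least 2-fold higher (7.94%). That was the tubulin Tubb6 (1.59 ± 0.20), while the neuronal tubulin Tubb4a stood at −0.82 ± 0.20 and the microtubule-binding Map7d2 at −0.85 ± 0.14. Tuba1a, the main alpha-tubulin of young neurons, was at 0.35 ± 0.14, Map1a at −0.19 ± 0.15, and Stmn2, a tubulin-binding protein of growth cones, at −0.05 ± 0.14.

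Of the kinases, phosphatases and turnover factors that act on neurofilaments and tau, all 28 were measured, with a median of −0.31. Below 0 were 26 of them, where 43.0% of measured genes were. A single gene was past 2-fold, and it was higher: Hspb1 (1.16 ± 0.20), a small heat shock protein. Over all measured genes 1.37% were at least 2-fold lower and 7.94% at least 2-fold higher. Cdk5 and Gsk3b, kinases of neurofilament tails and tau, were at −0.23 ± 0.14 and −0.43 ± 0.10. The phosphatase subunits Ppp2r2c and Ppp2r2b stood at −0.67 ± 0.20 and −0.61 ± 0.14, and Trim2, a ubiquitin ligase for the light subunit, at −0.15 ± 0.14.

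The 30 genes of axonal transport had a median of −0.21, 24 of them below 0 and none past 2-fold. Over all measured genes 43.0% lay below 0, 1.37% were at least 2-fold lower and 7.94% at least 2-fold higher. Kif5a, a kinesin that carries neurofilaments, was at −0.27 ± 0.06, Kif1a at −0.34 ± 0.11 and the dynein heavy chain Dync1h1 at 0.06 ± 0.12, with Klc2, a kinesin light chain, lowest at −0.73 ± 0.15. The 14 genes of the axon initial segment and its spectrin skeleton had a median of −0.17, also with none past 2-fold. Ank3, the ankyrin that organises the initial segment, was at −0.16 ± 0.09, Nfasc at −0.16 ± 0.13, Sptbn4 at 0.04 ± 0.17, and the adhesion protein Cntn1 at −0.85 ± 0.14.

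Among axon growth proteins 13 of 15 were measured, with a median of −0.23 and 10 below 0, where 43.0% of measured genes were. Gap43 stood at −0.23 ± 0.20 and Basp1 at 0.61 ± 0.20, both proteins of growth cones, and the injury-induced factor Atf3 at 0.93 ± 0.21. Sncg passed the background limit on the GPHR F/F;Nes array but not on the control, and Sprr1a passed it on neither.

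**Figure D4:**
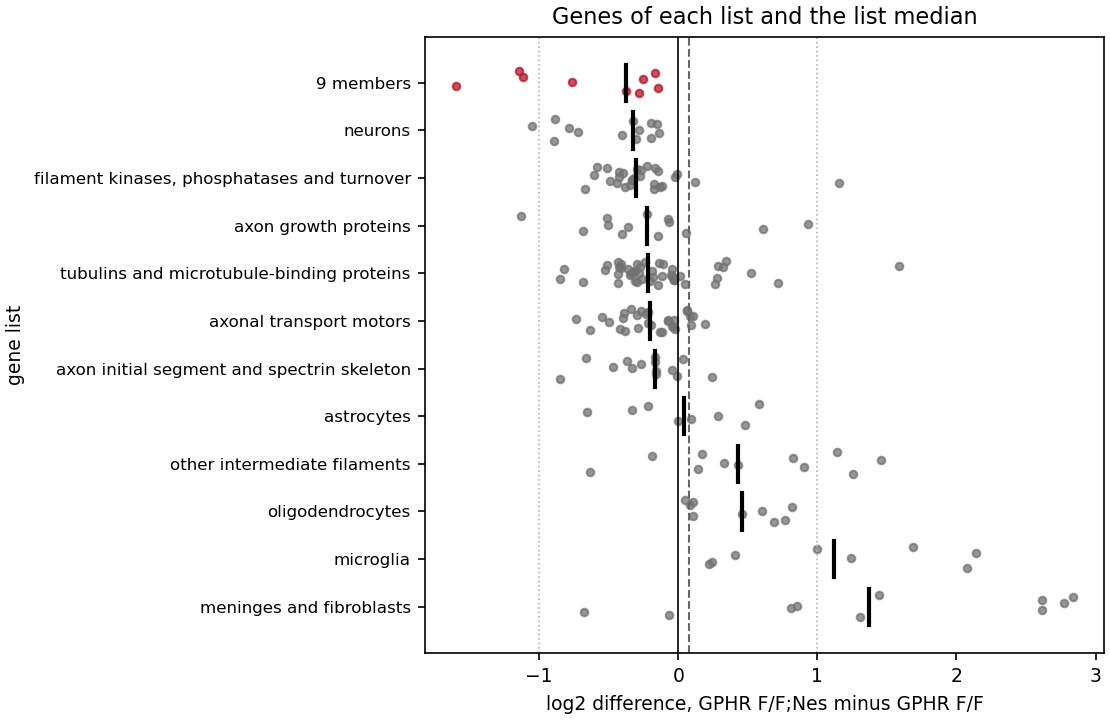
Difference in log2 level of each measured gene (points) of the 9 genes (red), of 6 related lists and of 5 lists of cell type markers, with a bar at each list's median, a dashed line at the median of all genes and dotted lines at 2-fold. The medians of the lists on microtubules, transport, kinases, initial segment and axon growth lie between −0.31 and −0.17, and the median of the other intermediate filament genes lies at 0.43, or at −0.60 on the spike-in scale.

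Prph is made by motor and aminergic neurons, and 7 of 15 genes of such neurons were measured, with a median of −0.23. At least 2-fold lower were 2 of them, against 1.37% of measured genes, and 1 was at least 2-fold higher, against 7.94%. Slc18a3, the vesicular acetylcholine transporter, gave 74.8 in the control and 9.45 in GPHR F/F;Nes (−2.40 ± 0.27), and Dbh, which makes noradrenaline, gave 39.7 and 7.88 (−1.75 ± 0.28). Chat, which makes acetylcholine, lay the other way at 0.89 ± 0.15, as did the hindbrain factor Hoxb2 at 1.84 ± 0.23. Th and Isl1 were at −0.23 ± 0.21 and −0.28 ± 0.20. The transporter gene Slc6a4 passed the background limit only on the GPHR F/F;Nes array and was at least 3.90-fold brighter on it, a bound that sets the brighter signal against the higher of the control's own and the dimmest signal well above background. Isl2 also passed the limit only on the GPHR F/F;Nes array, and Slc5a7 only on the control, with 8.10 there and 3.52 in GPHR F/F;Nes. Of the 7 measured genes 5 lay below 0 and 2 above, where 43.0% of measured genes lay below 0.

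Markers of whole cell types differed alongside these genes, and their part in the result was not tested. All 13 markers of neurons were well above background on both arrays and below 0 in the difference, where 43.0% of measured genes were. Their median was −0.32. Their summed level, in units of the array's 75th percentile, was 133.0 in the control and 93.3 in GPHR F/F;Nes. Without Slc32a1, the largest, the sums were 81.0 and 63.1. The marker with the lowest difference was Nrgn at −1.05 ± 0.20, and Slc17a7 and Rbfox3 stood at −0.89 ± 0.20 and −0.88 ± 0.12. Relative to the neuronal median, Nefm stood at −1.27, Nefl at −0.82, Nefh at −0.79 and Prph at −0.44, and the other 5 genes lay between −0.06 and 0.17. Of 10 oligodendrocyte markers 9 were measured and all 9 were above 0, with a median of 0.46. Their summed levels were 82.2 and 143, most of which was Ermn, and without Ermn they were 3.08 and 3.72. The 8 astrocyte markers had 4 on each side of 0 and a median of 0.04. Medians were 1.12 over 8 of 10 microglial markers, 1.37 over 10 of 10 meningeal and fibroblast markers, 1.36 over 5 of 8 choroid plexus markers and 1.11 over 6 of 9 vessel markers. Several of these markers were dim, such as Trem2 at 20.5 and Slc6a13 at 11.6 in the control. Dim genes of the array had higher differences as a whole, with a median of up to 0.44 in the bins of lowest mean level. Over the peripheral nerve list, 5 of 8 were measured, with a median of −0.13.

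Facts of the arrays bear on all these values. Gpr89 gave 43.3 in the control and 20.04 in GPHR F/F;Nes, a difference of −0.53 ± 0.22, and which part of the gene the F/F alleles remove was not analysed here: a probe outside that part checks nothing. The animals also differed in sex-linked transcripts: Xist passed the background limit only on the GPHR F/F;Nes array and Eif2s3y only on the control, so genotype and sex cannot be told apart. On the control 67.0% of probes were well above background and on GPHR F/F;Nes 69.2%. Replicate spots of 298 other probes had an SD of 0.051 and 0.053 on the log2 scale, and both arrays lay on 1 slide read in 1 scan.

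With each array centred on its median, 4 of the 9 genes were at least 2-fold lower against 3.40% of all genes, and on the spike-in scale 9 of 9 against 45.9%. With normexp and quantile normalization the count was 2 against 0.361%, without Nefh, and with no filter on dim probes it was 2 against 2.11%, without Nefm. A shift of all genes leaves the spacing between them as it was. Median centring, the spike-in scale, the authors' deposited values and keeping outlier spots shift the 9 genes alike, so their order could not change. The stricter filter on dim probes left all 9 values as they were. Under the remaining settings, the 3 neurofilament subunits lay below the other 6 genes in all except the one that kept every dim probe.

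**Figure D5:**
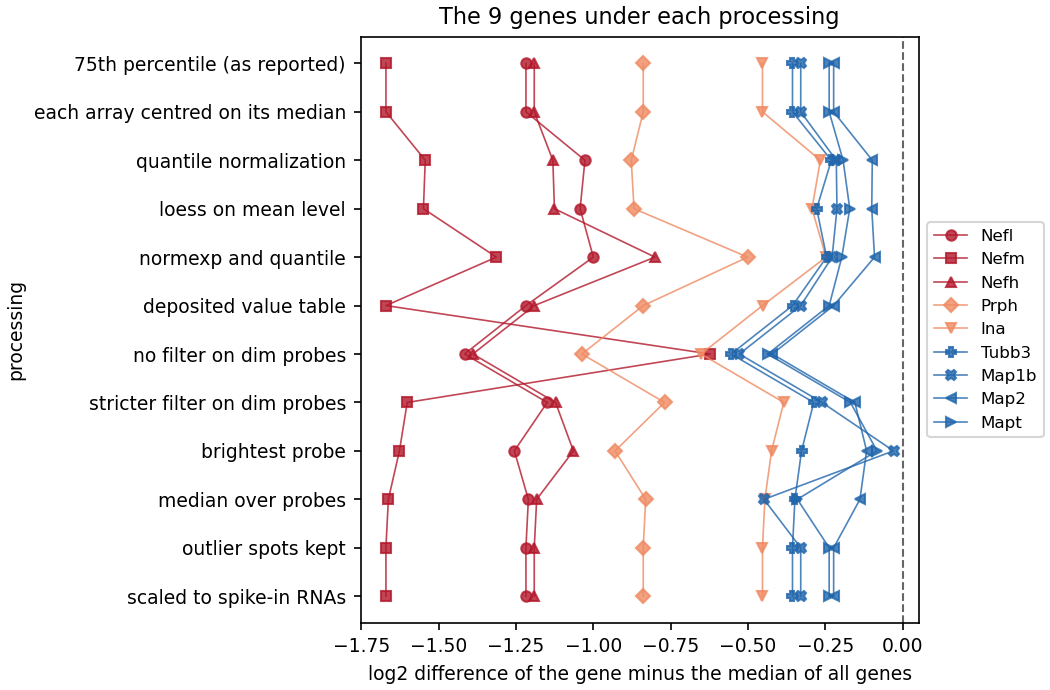
Difference in log2 level of each of the 9 genes minus the median of all genes, under the reported processing and 11 alternatives (1 per line). Red marks the neurofilament subunits, orange Prph and Ina, and blue the microtubule proteins. All points lie below 0, and the red points lie left of the others except for Nefm where no filter on dim probes was used. Median centring, the spike-in scale and the deposited values shift all genes alike, so on this axis they cannot move the points.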

How the data were processed

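Per the labels' protocols, TRIzol extracts were Cy3-labelled. The submitters' processing notes name Agilent Feature Extraction 11.5.1.1 as the software. The deposited scanner output gives a linear intensity for each spot; per the file headers the processed intensity is corrected for background. The authors' deposited value table is on a log2 scale: it equalled log2 processed intensity plus a constant for each array in 99.9% of probes (within 0.001), with column medians of −3.19 and −2.92. How that constant was chosen was not stated by the labels or headers.

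Control spots and outlier spots were left out. Each array's log2 75th percentile was subtracted, spots were averaged per probe, and probes well above background on both arrays were averaged per gene, which left 24093 genes on 36717 probes. Symbols were updated through RefSeq accessions, and no symbol of the 9 genes changed. The threshold was 2-fold, and no test was made because each genotype had 1 array. No spread between animals is known, and the number of arrays limits the precision.

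The 9 genes and all gene lists were chosen with earlier results of these data known. Named were all 9 genes, from each related list the 4 largest differences and up to 3 textbook genes (of which some are given here), the neighbours past 2-fold within 500 kb, and marker genes. Some items that this rule takes in are not reported here. Alternatives were other scalings, background corrections, filters and probe rules. Calculations used Python 3.11.15 and, for normexp, loess and quantile normalization, limma 3.58.1 in R 4.3.3, and the code was checked on simulated data.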

Additional observations from a re-analysis of the deposited data

How the results depend on the processing

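The median of the 9 genes stayed below 0 under every alternative run, and so did the list medians below 0, while that of the other intermediate filaments lay above 0 except on the spike-in scale. With each array centred on its median, the median of the 9 genes was −0.66, and list medians were 0.15 for other intermediate filaments, −0.50 for tubulins and microtubule-binding proteins, −0.58 for kinases and turnover, −0.48 for transport motors, −0.44 for the initial segment, −0.50 for axon growth and −0.51 for motor and monoaminergic neurons. Scaled to spike-in RNAs, all 9 genes were at least 2-fold lower and their median was −1.41. Under the same scaling, which for single genes and lists was added after seeing the data, the lists stood, in that order, at −0.60, −1.25, −1.34, −1.24, −1.20, −1.26 and −1.26. At a 3-fold threshold 1 of the 9 genes was counted in place of 3. Axon growth stood at −0.38 with quantile normalization and −0.36 with the stricter filter. Other intermediate filaments stood at 0.20 with normexp, 0.82 with no filter, and 0.17 with the stricter filter and with the brightest probe. The initial segment stood at −0.35 with the brightest probe. In these cases the cause was not tested. No paired analysis was possible because each genotype had 1 array, and leaving out an array leaves no comparison. Signal over background limits Prph and the dim Nefm probe most.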

Other observations

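An unnamed probe 41.4 kb from Nefl on chromosome 14 gave 62.9 in the control and 24.0 in GPHR F/F;Nes, a difference of −0.81 ± 0.22, and it was picked out after its value was seen. The other genes measured near the Nefl and Nefm pair included Gnrh1 at 0.05, Cdca2 at 0.35 and Kctd9 at 0.56.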
